A study of Mus musculus with 3 samples.

Results

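The 119 genes described here encode voltage-gated and other ion channels. They were chosen by symbol, as the protein-coding genes whose symbol starts with Kcn, Cacna1 or Scn and a digit, with Piezo1 and Piezo2, among 21851 protein-coding genes of the GENCODE M21 basic annotation on the mouse mm10 build. Accessible chromatin had been mapped by DNase-seq, which sequences the DNA that the nuclease DNase I cuts in open chromatin, in MEL cells, an immortalized mouse erythroleukemia line blocked early in the red cell lineage. The 3 libraries came from 2 biological replicates of 1 condition, and the labels name no treatment. Biological replicate 1 had 2 libraries, merged before its peaks were called, and biological replicate 2 had 1. Each biological replicate therefore gave 1 list of peaks.

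Ion channels let ions cross the cell membrane down their gradients. Most of the voltage-gated ones are known from nerve, heart and muscle, where they carry and end electrical impulses, and their promoters are often silent in other tissues. Red cells are not electrically excitable, but they use a few channels to control their volume. Piezo1 opens when the membrane is stretched and lets calcium in, and Kcnn4, the Gardos channel, opens on calcium and lets potassium and then water leave the cell.

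The replicate 1 list held 281600 peaks and the replicate 2 list 89046. Each peak carries a deposited score, a whole number from 1 to 150, and no source used here says what it counts. Replicate 1 peaks had a median score of 73 and replicate 2 peaks one of 32, so scores rank peaks within a list and are not compared between lists. The read depth behind either list is unknown. Of 10 erythroid marker genes 8 had a promoter peak in both lists, all but Alas2, without one in replicate 2, and Slc4a1, without one in either. In both lists 2 of 10 neuron markers (Syn1 and Syp) and 2 of 10 markers of heart and skeletal muscle (Ryr1 and Tnni2) had one. In replicate 1 alone the counts were 9, 5 and 4 of 10. Over all protein-coding genes the shares were 49.4% in both lists and 58.3% in replicate 1.

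A gene was counted as open when a peak centre lay within 1000 bp of the start of any of its protein-coding transcripts, and its promoter score is the highest score among such peaks. Sequences of 8 replicate 2 peaks are shown as a description. They are the promoter peaks of Kcnn4, of Piezo1 and of the 4 other channel genes with the highest replicate 2 promoter scores, followed by the highest-scoring peak inside Kcnn4 and inside Piezo1, which were added after their values were seen. Each has 150 bp and is read 5′ to 3′ on the strand of its gene. Capitals mark matches, on either strand, to any of 14 short motifs: GATA (GATAA), the E-box type bound by TAL1 (CAGNTG), KLF (CCNCACCC), SP (GGGCGG), AP-1 (TGACTCA), ETS (CCGGAAGT), PU.1 (GAGGAAGT), RUNX (TGTGGTT), NRF1 (GCGCATGCG), CRE (TGACGTCA), CACGTG, the left and right parts of the REST site (TTCAGCACC and GGACAGCGC), and CTCF. None of these contains another. A match is a description of the letters and not a shown binding site.
Kcnn4 promoter, chr7:24369916-24370065, plus strand: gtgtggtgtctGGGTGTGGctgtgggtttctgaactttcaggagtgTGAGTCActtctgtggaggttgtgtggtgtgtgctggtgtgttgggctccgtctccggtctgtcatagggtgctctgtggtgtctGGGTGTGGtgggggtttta
Piezo1 promoter, chr8:122551636-122551785, minus strand: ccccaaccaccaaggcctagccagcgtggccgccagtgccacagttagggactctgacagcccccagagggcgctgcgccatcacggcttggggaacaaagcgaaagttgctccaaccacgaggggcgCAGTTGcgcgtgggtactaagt
Kcnn3 promoter, chr3:89520016-89520165, plus strand: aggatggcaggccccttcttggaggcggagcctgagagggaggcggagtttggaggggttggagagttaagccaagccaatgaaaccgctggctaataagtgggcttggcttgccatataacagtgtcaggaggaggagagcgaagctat
Kcnab2 internal promoter, chr4:152448776-152448925, minus strand: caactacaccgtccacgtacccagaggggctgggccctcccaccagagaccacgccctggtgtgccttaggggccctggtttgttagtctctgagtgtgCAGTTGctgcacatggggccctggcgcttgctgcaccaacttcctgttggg
Kcne3 internal promoter, chr7:100179496-100179645, plus strand: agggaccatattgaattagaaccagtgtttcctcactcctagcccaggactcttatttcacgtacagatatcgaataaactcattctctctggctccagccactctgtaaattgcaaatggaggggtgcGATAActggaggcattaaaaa
Cacna1c internal promoter, chr6:118758636-118758785, minus strand: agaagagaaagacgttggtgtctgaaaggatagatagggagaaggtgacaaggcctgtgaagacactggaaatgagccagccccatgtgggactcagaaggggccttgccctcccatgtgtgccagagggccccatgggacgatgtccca
Kcnn4 intron, chr7:24377136-24377285, plus strand: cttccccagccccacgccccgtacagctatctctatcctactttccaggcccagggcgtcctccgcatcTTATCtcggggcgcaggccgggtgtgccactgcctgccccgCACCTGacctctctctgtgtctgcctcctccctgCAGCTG
Piezo1 intron, chr8:122547956-122548105, minus strand: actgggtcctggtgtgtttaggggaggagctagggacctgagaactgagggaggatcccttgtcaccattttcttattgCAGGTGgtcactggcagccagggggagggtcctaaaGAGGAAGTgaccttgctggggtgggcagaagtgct
The Kcnn4 promoter peak held 2 KLF matches and 1 AP-1 match, and the Piezo1 promoter peak 1 CAGNTG match. The Kcnab2 peak held 1 CAGNTG match and the Kcne3 peak 1 GATAA match, while the Kcnn3 and Cacna1c peaks held none of the 14 motifs. The Kcne3 peak was centred 854.5 bp inside the gene from the internal start used, and another replicate 2 peak lay 37.5 bp from a start. The Cacna1c peak was centred 736.5 bp before its internal start, and another replicate 2 peak lay 136.5 bp from a start. The Kcnn4 intron peak held 1 GATAA match, read as TTATC on the gene's strand, and 2 CAGNTG matches. The Piezo1 intron peak held 1 CAGNTG match and 1 PU.1 match.

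Most channel genes had no promoter peak. In the replicate 1 list 35 of 119 channel genes were open (29.4%, Wilson 95% interval 22.0 to 38.1%), against 58.3% of all protein-coding genes. In the replicate 2 list 25 were open (21.0%, 14.7 to 29.2%), against 49.4% of all protein-coding genes. The same 25 were open in both lists, where the share of all protein-coding genes was again 49.4%. A further 10 were open in the replicate 1 list alone and 0 in the replicate 2 list alone, which leaves 84 channel genes open in neither (70.6%, 61.9 to 78.0%), against 41.7% of all genes. Of the channel genes open in replicate 1, 71.4% (54.9 to 83.7%) were open in replicate 2 as well, against 84.8% of all genes open in replicate 1. These intervals cover counting over genes only. With 1 condition and 1 list per biological replicate there is no test between samples.

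**Figure D1:**
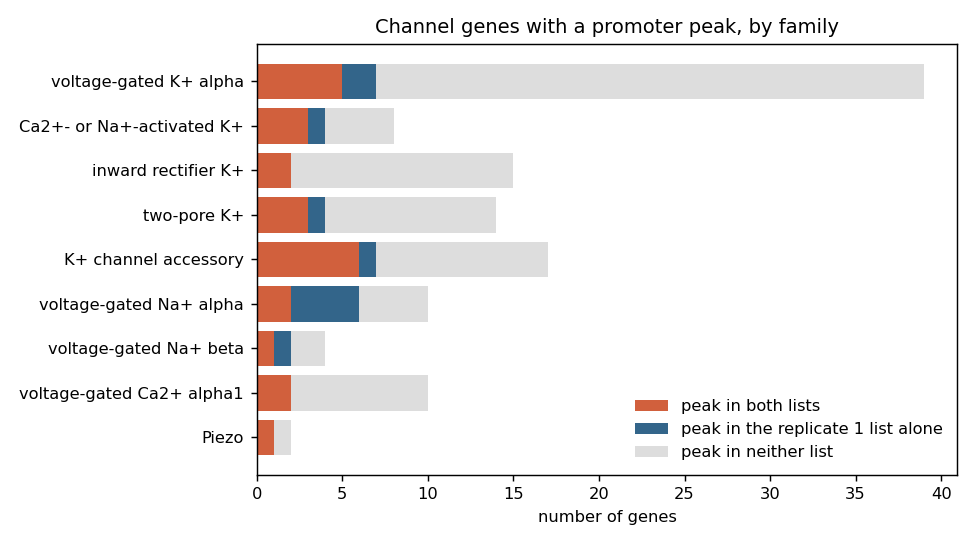
Number of channel genes (horizontal axis) in each family with a promoter peak in both lists, in the replicate 1 list alone or in neither. The longest grey bar is that of the voltage-gated potassium channel pore subunits. Of these 32 of 39 had a promoter peak in neither list, against 41.7% of all genes. The family with most genes open in both lists is that of the potassium channel accessory subunits, with 6 of 17, against 49.4% of all genes.

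The pore-forming subunits of voltage-gated potassium channels, the largest family, repolarize excitable cells. Of its 39 genes 5 were open in both lists (12.8%, 5.60 to 26.7%), against 49.4% of all genes. Another 32, with Kcna1, Kcna10, Kcna2 and Kcna3 as the alphabetical examples, were open in neither, against 41.7% of all genes. Kcnh3, an ELK-type channel of the forebrain, had a promoter score of 145 in replicate 1 and 62 in replicate 2. Kcna7, of the Shaker type, scored 123 and 29, and Kcnh6, an ERG-type channel, 108 and 31. Kcnh2, the ERG channel that helps end the heart's action potential, scored 100 in replicate 1 and 18 in replicate 2. Kcng4, a subunit that conducts only in company with other subunits, scored 98 and 16. Kcnh3 was therefore the only one of these 5 above the median score of all open genes in replicate 1, which was 139, and none reached the replicate 2 median of 63.

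The calcium- and sodium-activated potassium channels link membrane potential to ion levels inside the cell. Of these 3 of 8 were open in both lists (37.5%, 13.7 to 69.4%), against 49.4% of all genes, which lies within the interval. Kcnn3, a small-conductance calcium-activated channel of neurons, had the highest replicate 2 promoter score of all channel genes, 95, with 146 in replicate 1. Its replicate 2 score was higher than that of 90.6% of all open genes. Kcnn4 scored 137 in replicate 1 and 44 in replicate 2, above 43.3% and 22.0% of all open genes in the same lists. Kcnn1, the small-conductance relative of Kcnn3, scored 112 and 27, from a peak at an internal start, centred 6227.5 bp inside the gene from the outermost one. The red cell channel Kcnn4 thus ranked below its neuronal relative Kcnn3 in both lists. Kcnma1, Kcnn2, Kcnt1 and Kcnt2 were open in neither.

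Inward rectifiers hold the resting potential, and 2 of 15 were open in both lists (13.3%, 3.74 to 37.9%), against 49.4% of all genes. Another 13 were open in neither (Kcnj1, Kcnj12, Kcnj13 and Kcnj14 for example), against 41.7% of all genes. Kcnj10, which buffers potassium in glia and kidney, scored 137 in replicate 1 and 58 in replicate 2. Kcnj11, the pore of the ATP-sensitive channel of pancreatic beta cells, scored 95 and 17, from peaks that lay 633.5 bp (replicate 1) and 613.5 bp (replicate 2) before its start. Among the tandem-pore Kcnk genes, which carry background potassium current, 3 of 14 were open in both lists (21.4%, 7.57 to 47.6%), against 49.4% of all genes. Kcnk5, an alkali-sensitive background channel, scored 132 and 48, and Kcnk7, for which no current of its own is known, 129 and 42. Kcnk13, a channel of microglia, scored 117 in replicate 1 and 23 in replicate 2. All of these lay below the all-gene median of their list. Kcnk1, Kcnk10, Kcnk12 and Kcnk15 are examples of the 10 of 14 Kcnk genes open in neither, against 41.7% of all genes.

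Accessory subunits do not form a pore but set where and how channels open. Across the potassium and sodium channels 7 of 21 accessory genes were open in both lists (33.3%, 17.2 to 54.6%). Of the pore-forming genes 18 of 98 were (18.4%, 11.9 to 27.2%), and these intervals overlap. The share of all protein-coding genes, 49.4%, lay inside the accessory interval and above the pore-forming one. Kcnab2, a beta subunit of voltage-gated potassium channels with an oxidoreductase fold, scored 144 in replicate 1 and 78 in replicate 2. Kcne3, a small membrane subunit best known from gut epithelium, scored 146 and 76. Kcnab3, another beta subunit, scored 141 and 62, from peaks whose centres lay 400 bp apart. It was the exception among the 25 genes: in the other 24 the highest-scoring promoter peaks of the lists overlapped. Kcnip2 and Kcnip3, calcium-binding partners of the A-type potassium channels, scored 137 and 44 for Kcnip2 and 122 and 40 for Kcnip3. Kcnmb2, a beta subunit of the large-conductance calcium-activated channel, scored 59 in replicate 1, the lowest of the 25, and 13 in replicate 2, where it shared the lowest score with Scn1a. The potassium channel accessory genes open in neither included Kcnab1, Kcne1, Kcne1l and Kcne2.

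Voltage-gated sodium channels start the action potential. Of their 10 pore-forming genes 6 were open in replicate 1, against 58.3% of all genes. In both lists 2 were open (20%, 5.67 to 51.0%), against 49.4%, which lies within the interval. Scn11a, a channel of pain-sensing neurons, scored 104 in replicate 1 and 23 in replicate 2, and Scn1a, of central inhibitory neurons, 82 and 13. Scn2b, 1 of 4 beta subunits, scored 120 and 23 from peaks that lay 851.5 bp (replicate 1) and 871.5 bp (replicate 2) before its start. Scn10a, Scn7a and Scn9a are examples of those open in neither. Of 10 pore-forming genes of voltage-gated calcium channels 2 were open in both lists (20%, 5.67 to 51.0%), with 49.4% again within the interval. Cacna1c, the L-type channel of heart and smooth muscle, scored 145 and 75, and Cacna1g, a T-type channel of low threshold, 138 and 37. Cacna1a, Cacna1b, Cacna1d and Cacna1e are examples of the other 8, which were open in neither, against 41.7% of all genes. Piezo1 scored 114 in replicate 1 and 26 in replicate 2, above 17.9% and 5.80% of all open genes in the same lists. Piezo2, the touch receptor of sensory neurons, was open in neither, and its nearest peak lay 1067.5 bp from a start in replicate 1.

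**Figure D2:**
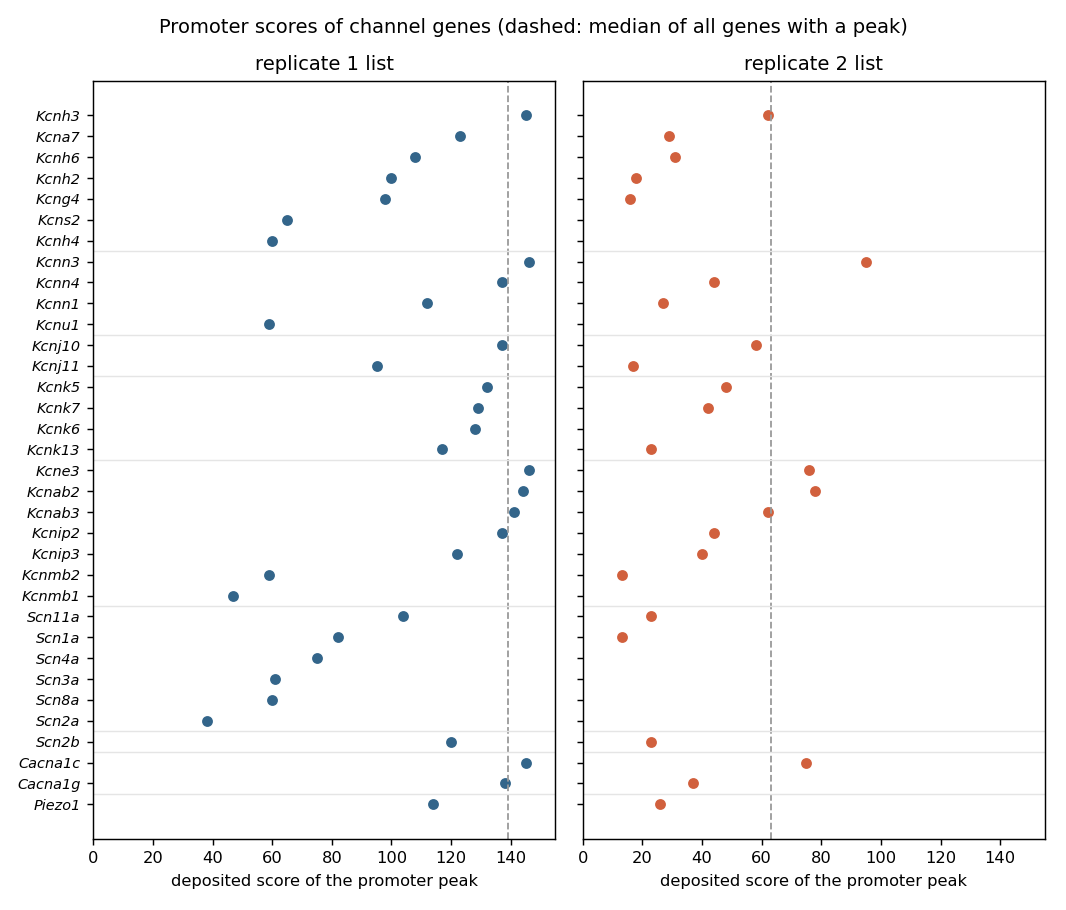
Deposited score (horizontal axis, no unit) of the promoter peak of the channel genes open in replicate 1, of which 1 of 35 is not drawn, and of the 25 open in replicate 2, grouped by family with lines between families, and with the median over all open genes of the same list dashed. In the replicate 1 list 6 channel genes lie to the right of the dashed line at 139, and in the replicate 2 list 4 lie to the right of the one at 63.

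Among open genes, channel genes had lower promoter scores. Their median was 114 in replicate 1, against 139 over all open genes, and 37 in replicate 2, against 63. In replicate 1, 6 of 35 channel genes lay above the all-gene median, and in replicate 2, 4 of 25 did. Those 4 were Kcnn3, Kcnab2, Kcne3 and Cacna1c, all of which were also among the 6 in replicate 1, with Kcnh3 and Kcnab3. The 10 channel genes open in replicate 1 alone scored from 38 to 128, with a median of 60. Kcnk6, a tandem-pore channel, led them with 128, followed by Scn4a, the sodium channel of skeletal muscle, with 75, Kcns2, a modifier subunit of potassium channels, with 65, and Scn3a, an embryonic neuronal sodium channel, with 61. Kcnh4 and Scn8a came next, at 60 each. Apart from Kcnk6 and Scn4a, the 10 lay below 73, the replicate 1 median of all peaks.

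The highest-scoring promoter peak of an open channel gene was not always at its outermost start. That peak lay over 1000 bp from the gene's outermost protein-coding start in 10 of 35 channel genes in replicate 1 (28.6%, 16.3 to 45.1%), against 7.82% of all open genes. In replicate 2 it did so in 9 of 25 (36%, 20.2 to 55.5%), against 6.77%. When the outermost start alone was used, 31 channel genes were still open in replicate 1 and 19 in replicate 2, so several of these genes had a peak there too. In Cacna1c the replicate 2 peak lay 437708 bp inside the gene from that start, in Kcnmb2 253264 bp, in Kcnip3 38719.5 bp, in Scn1a 30646.5 bp and in Kcnab2 29020.5 bp. The coding start closest to the promoter peak was the gene's own in 35 of 35 and 25 of 25 cases, against 91.4% of all open genes in replicate 1 and 90.2% in replicate 2. Channel genes were longer, with a median of 42.2 kb against 17.4 kb over all genes, and the median number of distinct starts was 2 for both. The part of gene length in this difference was not tested.

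The gap between channel genes and all genes was found at promoters rich in CpG dinucleotides, the type that housekeeping genes and many developmental and neuronal genes carry. Genes were divided into 5 classes by the observed over expected CpG ratio within 500 bp of the outermost start. In class 5, with ratios from 0.810 to 1.21, 2 of 18 channel genes were open in both lists (11.1%, 3.10 to 32.8%), against 80.6% of all genes. In class 4, 3 of 22 channel genes were open (13.6%, 4.75 to 33.3%), against 75.1% of all genes, and in class 3, 7 of 33 (21.2%, 10.7 to 37.8%), against 55.9%. In class 2, 11 of 37 channel genes were open (29.7%, 17.5 to 45.8%), against 24.8%, and in class 1, 2 of 9 (22.2%, 6.32 to 54.7%), against 10.5%. Over all genes the share rose with CpG content, while among channel genes it did not. The ratio was taken at the outermost start, whereas a peak at any start counted as open. With the outermost start alone, Cacna1c, Kcnmb2, Scn1a and Scn11a of class 2 were no longer open in both lists. The same held for Kcnip2 and Kcnn1 of class 3, so the CpG content at their open internal starts is not what was classed. The median ratio was 0.422 in channel genes open in both lists and 0.535 in those open in neither. Piezo1 and Kcnh2 were the 2 open class 5 genes. Reads from repeated sequence can be lost, and the part of this in the missing peaks was not tested. Of the 84 channel genes open in neither list, 80 had at least 90% of their 32-bp promoter words occurring once in the genome, and 1, Cacna1e, had under 50%.

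**Figure D3:**
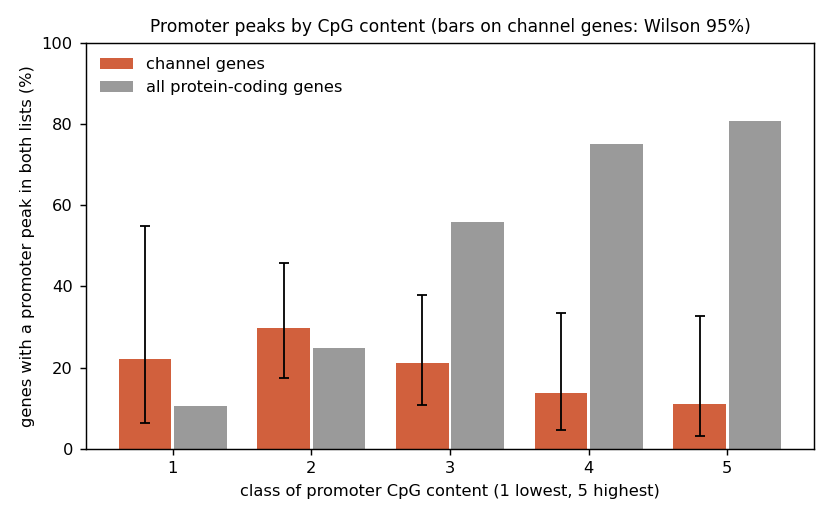
Share of genes with a promoter peak at any start in both lists (vertical axis, percent), for channel genes with Wilson 95% intervals and for all protein-coding genes. Classes are of promoter CpG content at the outermost start. The bars of all genes climb to 80.6% in class 5, where the bar of channel genes is at 11.1%, and in classes 1 and 2 the intervals of channel genes hold the share of all genes.

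Some channel genes without a promoter peak had one just beyond the window. Among genes without a promoter peak in replicate 1, 30 of 84 channel genes had a peak centre 1000 to 2500 bp from a start (35.7%, 26.3 to 46.4%), against 19.1% of all such genes. In replicate 2 it was 15 of 94 (16.0%, 9.92 to 24.7%), against 10.0%, which lies within the interval. In CpG classes 4 and 5 together the share was 16 of 30 channel genes in replicate 1 (53.3%, 36.1 to 69.8%), against 21.3%, and 10 of 35 in replicate 2 (28.6%, 16.3 to 45.1%), against 12.6%. In class 3 the share was 6 of 26 in replicate 1 (23.1%, 11.0 to 42.1%), against 23.2%, and 1 of 26 in replicate 2 (3.85%, 0.682 to 18.9%), against 11.7%. In classes 1 and 2 it was 8 of 28 in replicate 1 (28.6%, 15.3 to 47.1%), against 17.5%, and 4 of 33 in replicate 2 (12.1%, 4.82 to 27.3%), against 8.86%. This comparison was chosen after its values were seen. Taking the peak nearest to a start for each gene, the farthest inside the window were those of Kcnmb1 at 837.5 bp in replicate 1 and of Scn2b at 871.5 bp in replicate 2, and just outside it lay those of Kcnj1 at 1014.5 bp and Cacna1s at 1019.5 bp in the same lists. With 2500 bp in place of 1000 bp, 65 channel genes were open in replicate 1 (54.6%), against 66.2% of all genes, and 40 in replicate 2 (33.6%), against 54.5%. Within 10 kb of a start the shares were close, at 82.4% against 81.4% in replicate 1, while in replicate 2 they were 59.7% against 68.8%.

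**Figure D4:**
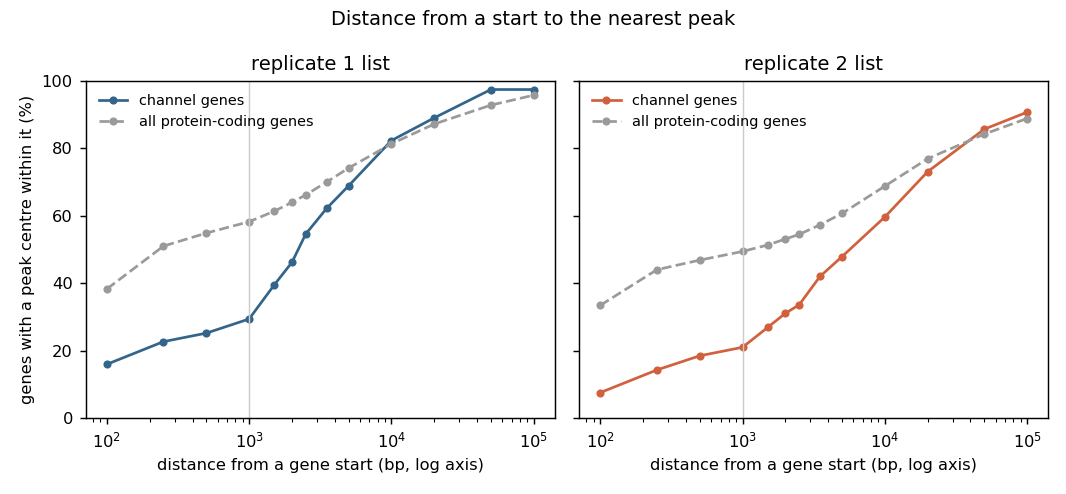
Share of genes (vertical axis, percent) with a peak centre within a given distance of a start (horizontal axis, bp on a log scale), for channel genes and all protein-coding genes in each list, with a grey line at 1000 bp. The channel curve is low up to 1000 bp, at 29.4% in replicate 1 and 21.0% in replicate 2, and climbs towards the curve of all genes beyond it.

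Many channel genes held stronger peaks inside the gene than at the promoter. This comparison, too, was chosen after its values were seen. In replicate 2 the highest score inside the gene exceeded the promoter score in 11 of 25 open channel genes (44%, 26.7 to 62.9%), against 19.7% of all open genes, and in replicate 1 in 17 of 35 (48.6%, 33.0 to 64.4%), against 24.4%. Among channel genes without a promoter peak in replicate 2, 49 of 94 still had a peak inside the gene (52.1%), against 33.0% of all such genes, and in replicate 1, 63 of 84 did (75%), against 45.2%. The part of the greater length of channel genes in both counts was not tested. The highest of these peaks, with a replicate 2 score of 105, lay in an intron of Kcnmb1, which overlaps Kcnip1, so the peak counts for both genes. Kcnh2 had an intron peak of 92 in replicate 2, 7313.5 bp from its start, against 18 at its promoter. Cacna1a had one of 89 and Cacna1d one of 86, both without a promoter peak. These 5 genes were picked after their values were seen. By number, Cacna1c held 106 peaks in replicate 1 and 29 in replicate 2, Cacna1d 70 and 22, Cacna1a 50 and 20, Kcnip1 60 and 19, and Kcnn3 37 and 16. From 50 kb upstream to 50 kb downstream the median number of peaks per gene was 25 in replicate 1 for channel genes, against 28 for all genes. In replicate 2 it was 10, against 9. Per 100 kb the median was 15.5 in replicate 1, against 20.6, and 5.02 in replicate 2, against 6.78.

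Both red cell channels followed this pattern. Kcnn4, on the plus strand of chromosome 7 with its outermost start at position 24370263, had a promoter peak centred 172.5 bp (replicate 1) and 272.5 bp (replicate 2) before that start. All 4 of its replicate 2 peaks inside the gene were intronic and scored above the promoter's 44, at 56, 59, 62 and 82. The peak of 82, whose sequence with the GATAA match is printed above, lay 6947.5 bp inside the gene, and the overlapping peak in replicate 1 scored 146, against 137 at the promoter. A peak of 82 in replicate 2 and 147 in replicate 1 lay just downstream of the gene, 17007.5 bp from the start in replicate 2. In all, 52 peaks in replicate 1 and 11 in replicate 2 lay in the gene or within 20 kb of it.

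Piezo1, on the minus strand of chromosome 8 with its start at position 122551329, had its promoter peak 381.5 bp upstream in both lists. Its highest-scoring peak lay in an intron, 3298.5 bp inside the gene in replicate 2 with a score of 88, against 26 at the promoter. The overlapping replicate 1 peak scored 146, against 114 at the promoter. Next in replicate 2 within the gene was an intron peak of 37 at 13338.5 bp, with 129 in replicate 1. Upstream, a peak 6581.5 bp from the start scored 50 in replicate 2, and its replicate 1 counterpart scored 140. For both genes the promoter was thus weaker than an intron site in each list, and in replicate 2 all 4 peaks inside each gene were intronic.

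**Figure D5:**
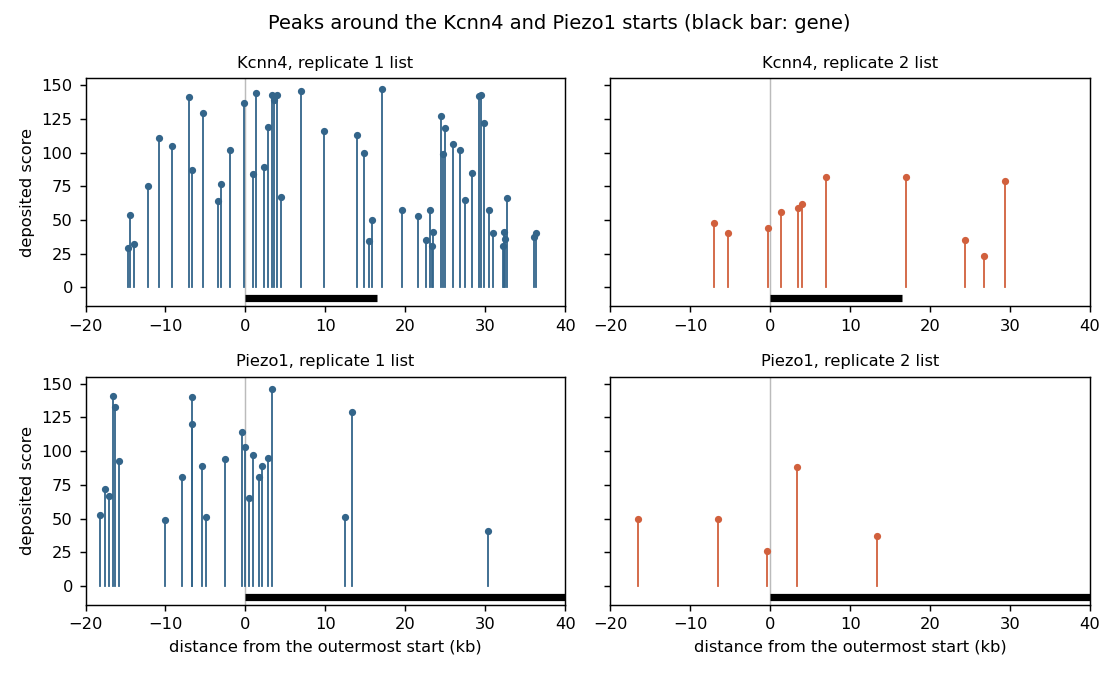
Deposited score (vertical axis) of peaks in or within 20 kb of Kcnn4 (upper row) and Piezo1 (lower row) in each list. The horizontal axis gives distance from the outermost start along the direction of transcription, from 20 kb upstream to 40 kb downstream. The gene is a black bar, cut at 40 kb for Piezo1, which is 69.6 kb long. The tallest replicate 2 line inside each gene is in an intron, at 82 for Kcnn4 and 88 for Piezo1, above the promoter lines of 44 and 26.

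Motifs in the promoter peaks of open channel genes were counted in 150 bp and set beside those of all open genes. GATAA, the core of the sites bound by GATA1 in red cell precursors, occurred in 2 of 25 channel peaks in replicate 2 (8%, 2.22 to 24.97%), against 10.5% of all promoter peaks, and CAGNTG in 8 of 25 (32%, 17.2 to 51.6%), against 23.0%. SP matches were found in 10 of 25 (40%), against 47.7%. The left part of the site of REST, a repressor of neuronal genes in other tissues, occurred in 3 of 35 channel peaks in replicate 1 (8.57%, 2.96 to 22.4%), against 0.523%, and in 1 of 25 in replicate 2 (4%, 0.710 to 19.5%), against 0.318%. The right part of that site was in 0 of 35 channel peaks in replicate 1, against 0.334%, and in 0 of 25 in replicate 2, against 0.328%. The ETS motif CCGGAAGT, common at housekeeping promoters, was in 0 of 25 (0 to 13.3%), against 6.70%, which lies within the interval. PU.1 matches were in 3 of 25 (12%, 4.17 to 30.0%), against 3.82%. In replicate 1 they were in 3 of 35 (8.57%, 2.96 to 22.4%), against 4.18%. CTCF matches were in 1 of 25 (4%, 0.710 to 19.5%), against 1.17%. In replicate 1 they were in 2 of 35 (5.71%, 1.58 to 18.6%), against 1.11%. Within 500 bp of the outermost start CCGGAAGT was in 0 of 119 channel genes (0 to 3.13%), against 7.26% of all genes. There SP matches were in 89 of 119 channel genes (74.8%, 66.3 to 81.7%), against 61.6%. GATAA was in 52 of 119 (43.7%, 35.1 to 52.7%), against 56.5%. In that same window the left REST part was found in 5 of 119 channel genes (4.2%, 1.81 to 9.46%), against 1.53%, and the right part in 2 of 119 (1.68%, 0.462 to 5.92%), against 1.73%. In the strongest peak inside each gene, more than 1000 bp from any start, GATAA occurred in 25 of 64 channel peaks in replicate 2 (39.1%, 28.1 to 51.3%), against 35.1% of such peaks over all genes. GATAA was thus more frequent in these inner peaks than in promoter peaks, for channel genes as for all genes.

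Genes outside the channel families were counted in the same way, and over all protein-coding genes 49.4% were open in both lists. Of 20 red cell genes, most of them for ion and water transport, 16 were open in both lists (80%, 58.4 to 91.9%). Among them was Atp2b4, the plasma membrane calcium pump, with promoter scores of 148 in replicate 1 and 92 in replicate 2. This red cell transport list also held Abcb6, Ank1, Slc2a1 and Stom, which are not primarily known as ion or water transporters. All of those were open in both lists. All 5 genes of store-operated calcium entry were open in both lists, with scores from 127 to 148 in replicate 1 and from 42 to 93 in replicate 2. Of 45 ligand-gated channel genes for glutamate, GABA, glycine and acetylcholine, which work at synapses, 5 were open in both lists (11.1%, 4.84 to 23.5%). The share of the 119 channel genes, 21.0%, lay inside the interval of the ligand-gated genes and below that of the red cell transport list.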

How the data were processed

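DNase-seq was deposited for 3 libraries of MEL cells. Per the deposited notes, both libraries of biological replicate 1 were merged before its peaks were called, while those of replicate 2 rest on its own library, so technical replicates could not be compared. Coordinates are on mm10, per the labels. Aligner, peak caller and depth are not given in the sources used here. The deposited peak score is the authors' value, from 1 to 150. Hotspots were also deposited, with a −log10 q-value from 1.30 to a cap of 100, and served only as positions.

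Repeated peak lines (67 in replicate 1 and 7 in replicate 2) were dropped. Peaks were joined to GENCODE M21 basic on GRCm38, the same build as mm10, on chromosomes 1 to 19, X and Y, and sequences were read from that reference. Promoter peaks were centred within 1000 bp of a protein-coding start. The share of words of 32 bp that occur once in the genome was taken within 500 bp of the outermost start. Hits to the 14 motifs were counted on both strands in 150 bp, with each peak counted once. Where a peak was assigned to exon or intron, exons came from protein-coding transcripts. The tools were Python 3.11.15, numpy 2.4.6, scipy 1.17.1 and matplotlib 3.10.9. On simulated data all 400 genes were called correctly and all 280 planted motif instances were found.

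The members and the comparison lists were chosen with earlier results of these data known, and 1 gene that matches the symbols was not analysed here. Named genes were all those open in both lists, the 5 highest-scoring of those open in replicate 1 alone with ties, the 5 with most replicate 2 peaks inside the gene, and up to 4 alphabetical examples per family without a promoter peak; some of the genes this rule names are not reported here. With 1 condition and 1 list per biological replicate no p-value was possible, and intervals cover counting only. Alternatives varied the promoter width, the score limit, list length, hotspots for peaks, the starts used, autosomes, subunit type, CpG window, flank and motif window.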

Additional observations from a re-analysis of the deposited data

How the results depend on the processing

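The channel share stayed below that of all genes in 27 of 27 alternatives for the counts of open genes. With a window of 2500 bp, 65 channel genes were open in replicate 1, 40 in replicate 2 and 40 in both lists. In lists of equal length 22 were open in replicate 1 (18.5%), against 50.7% of all genes. With the higher-scoring 50% of each list, 13 were open in replicate 2 and 13 in both (10.9%), against 44.4% of all genes. Each biological replicate alone gave 25 to 35. With CpG counted within 250 bp, channel genes open in both lists were 11.1% of class 1, against 11.3% of all genes, and 33.3% of class 2, against 24.7%. They were 6.90% of class 3, against 53.8%, 28.6% of class 4, against 76.4%, and 14.3% of class 5, against 80.8%. The median number of peaks per channel gene with a flank of 10 kb was 10 in replicate 1 and 3 in replicate 2, the same as over all genes. Per 100 kb the median with this flank was 14.4 in replicate 1, against 20.5 over all genes, and 4.55 in replicate 2, against 6.72. The median number of peaks was 7 in replicate 1 in lists of equal length with the flank of 50 kb, against 9 over all genes. Fewer bases or fewer peaks were counted in these settings. In 75 bp in place of 150 bp, a shorter stretch, the replicate 1 share was 14.3% for CAGNTG, against 12.04% of all promoter peaks. KLF was at 2.86%, against 5.25%, and SP at 20%, against 25.7%. RUNX was at 0%, against 1.63%, and CACGTG at 0%, against 3.34%. With 150 bp in replicate 1, CAGNTG was at 34.3%, against 23.8%, KLF at 11.4%, against 10.1%, and SP at 34.3%, against 41.2%. RUNX was at 2.86%, against 2.86%, and CACGTG at 5.71%, against 6.09%. With 75 bp in replicate 2 the shares were 0% for GATAA, against 5.69%, 12% for CAGNTG, against 11.3%, and 4% for KLF, against 5.14%. PU.1 was at 4%, against 2.18%, and the left REST part at 0%, against 0.123%. The other 48 of 68 values moved by less than their interval or within 1.5 times. No paired analysis was possible because there is 1 condition. The unknown depth and the different lengths of the lists limit what a missing peak says: it shows that no peak was listed, not that the promoter was closed.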

Other observations

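Other channel families were counted in lists chosen with earlier results known, and differences between the lists were not tested. Over all protein-coding genes 49.4% were open in both lists. Of 19 chloride and volume channel genes 12 were open in both lists (63.2%, Wilson 95% interval 41.0 to 80.9%). Clcn6, an endosomal chloride-proton exchanger, scored 148 in replicate 1 and 79 in replicate 2, and Lrrc8a, the subunit that volume-regulated anion channels require, 146 and 76. Ano6, a calcium-activated scramblase that exposes phosphatidylserine on blood cells, scored 147 and 85. Cftr, Clcn1, Ano1 and Ano2 were open in neither list.

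Of 16 accessory genes of voltage-gated calcium channels 5 were open in both lists (31.2%, 14.2 to 55.6%): Cacnb1, Cacnb3, Cacng2, Cacng3 and Cacng8. Of 30 genes with TRP-family symbols 9 were open in both lists (30%, 16.7 to 47.9%). They included Trpm7, a channel with a kinase domain, and Mcoln1, a lysosomal channel. Trpc4ap, counted among the 9, and Trpc5os, open in neither list and counted among the 30, are no channels themselves and were included because their symbols matched. Within the red cell transport list, Slc4a1 (band 3, the anion exchanger of mature red cells), Atp1b1 and Trpc6 had no promoter peak in either list.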
